A study of Homo sapiens with 8 samples.

Results

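M3 (MCF10Ca1h) was compared with M1 (MCF10A) by poly A+ RNA-seq, with 2 libraries from each line, which are 4 of the 8 libraries sequenced in the series. M1 is the immortalized, non-tumorigenic mammary epithelial line from which the other lines descend. M2 (MCF10AT1k.cl2) carries an activated HRAS transgene, and M3 and M4 (MCF10CA1a.cl1) were obtained from carcinomas that grew out of xenografted M2 cells, so M3 shares the HRAS history of M2 and M4. Each line is a single established cell line, and the replicates are described as biological. All cells grew as acini in Matrigel for 8 days with 2% horse serum, hydrocortisone, cholera toxin and insulin. The medium of M1 and M2 held EGF at 10 ng/ml, and that of M3 and M4 held none (0 ng/ml). A difference between M3 and M1 can therefore come from the line or from the EGF in the medium, which cannot be told apart here.

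EGF and its relatives are made as membrane-bound precursors, are shed, and bind the ERBB family of receptor kinases. These receptors signal through RAS to the ERK kinases, which induce transcription factors, cyclins and a set of feedback inhibitors such as the DUSP phosphatases and Sprouty proteins. In a normal mammary acinus, basal and luminal epithelial programs are kept apart, laminin anchors the outer cells to the basement membrane, and growth stops once the structure has formed. CpG-rich promoters, which many broadly expressed genes have, are the places where DNA methylation is known to silence transcription.

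The 4 libraries held 80777906 and 83512054 counts in M1 and 87747983 and 86382426 in M3, within a range of 69669970 to 107350344 over the series. Levels are given as counts per 1000000 (CPM) after scaling for library size and composition, and each value is 1 library. The replicates were far from identical: the coefficient of variation between replicates was 0.377 in M1 and 0.307 in M3, against 0.0574 in M2. In M1, 25 coding genes had at least 100 counts in replicate 1 and at most 3 in replicate 2, and 4 the other way round, whereas in M3 these numbers were 3 and 1. The expression table published with the study also exchanges 2 libraries, placing the library labelled M1 replicate 2 under M2 and that labelled M2 replicate 1 under M1. Over 13495 genes with at least 20 counts in every library, the library labelled M1 replicate 2 had a rank correlation of 0.971 with M1 replicate 1 and of 0.963 and 0.962 with the M2 libraries, and that labelled M2 replicate 1 had 0.998 with M2 replicate 2. These are descriptions across genes of shared libraries. The sample labels were kept, and the numbers of members called higher and lower under the exchange stand in brackets beside the counts of most gene lists.

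Of 18432 genes tested, 2494 (13.5%) were called different between M3 and M1, 1478 (8.02%) higher and 1016 (5.51%) lower. A call required an adjusted p under 0.05 in edgeR's quasi-likelihood test and more than a 2-fold difference. Among 14089 coding genes, 2106 (14.9%) were called, 1307 (9.28%) higher and 799 (5.67%) lower. These 3 shares are the background for every gene group below, beside a median log2 difference of 0.02 over all coding genes tested. Differences are M3 against M1 on the log2 scale, with their standard error (SE), and n = 2 libraries in each line. Of the coding calls, 1180 higher and 646 lower ones had no overlap between the libraries of the lines and at least 100 counts in each library of the higher line. By the simpler rule of a 2-fold difference in each replicate, 1192 of the coding genes tested (8.46%) passed, with 1 CPM added to each value. When the M1 and M3 libraries were fitted without M2 and M4, 1415 of the 2106 coding calls were also made. With the labels of M1 replicate 2 and M2 replicate 1 exchanged, 202 of them were also called, and 2101 kept their direction.

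Some genes went from a well measured level in M1 to almost no reads in M3. Of 11352 coding genes with at least 100 counts in both M1 libraries, 12 (0.106%) had at most 3 counts in each M3 library. They include a DNA repair enzyme, an imprinted splicing factor gene, 3 zinc finger repressors, a desmosomal cadherin and a BMP ligand. MGMT, which removes alkyl groups from guanine and so repairs DNA after alkylation, had 1372 and 1471 counts in the M1 libraries and 0 and 1 in those of M3, a ratio of 2870-fold (95% interval 515 to 113386) that covers counting error only. M2 and M4 both expressed it, with 1803 and 1263 in M2 and 994 and 681 in M4, so among the 4 lines its transcripts were at or near 0 in M3 alone. SNRPN, an imprinted gene that encodes a small nuclear ribonucleoprotein, had 249 and 446 counts in the M1 libraries and 0 and 0 in those of M3, at least 117-fold lower against a floor of 3 counts per library (0.0362 CPM). It too was kept in the other lines, with 435 and 264 in M2 and 507 and 249 in M4. A second coding gene that overlaps it on the same strand, ENSG00000214265 (chr15:25200181-25245423 in GRCh37), had 3271 and 4515 counts in the M1 libraries and 0 and 0 in those of M3, with 3134 and 2206 in M2 and 3764 and 2292 in M4. Because these genes overlap, the division of reads between them is uncertain, but neither had a read in M3.

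Apart from ENSG00000214265, the genes named here around SNRPN and MGMT were read in both lines, and some of them were called. Many lay far from the silent gene. UBE3A was 355 kb and NIPA2 2034 kb from SNRPN. From MGMT, C10orf143 was 249 kb, GLRX3 365 kb, MKI67 1341 kb, PTPRE 1381 kb and BNIP3 2212 kb away. Near SNRPN, where no neighbour other than ENSG00000214265 was called, the ubiquitin ligase gene UBE3A had 4998 and 4450 counts in the M1 libraries and 4484 and 7806 in those of M3 (log2 difference 0.35 ± 0.22, adjusted p = 0.29) and the magnesium transporter gene NIPA2 4115 and 3400 counts in the M1 libraries and 5220 and 8323 in those of M3 (log2 difference 0.82 ± 0.20, adjusted p = 0.024). The nearest expressed coding genes on either side of MGMT were MKI67, called higher (described with the mitosis genes), and C10orf143, called lower, with 45 and 51 counts in the M1 libraries and 13 and 3 in those of M3 (log2 difference -2.55 ± 0.76, adjusted p = 0.0496). The call of C10orf143 was lost on leaving out either M1 replicate or M3 replicate 2. Farther out, BNIP3 was called higher (2.05 ± 0.40), the phosphatase gene PTPRE had 1547 and 2102 counts in the M1 libraries and 2266 and 2728 in those of M3 (log2 difference 0.44 ± 0.24, adjusted p = 0.22) and GLRX3 had 9244 and 8426 counts in the M1 libraries and 14250 and 12837 in those of M3 (log2 difference 0.61 ± 0.18, adjusted p = 0.0496). UBE3A, NIPA2, PTPRE and GLRX3 each had a log2 difference above 0, save for UBE3A at -0.01 without M3 replicate 2, and none of them was called, although NIPA2 and GLRX3 had an adjusted p under the threshold with less than a 2-fold difference. Over the 4 nearest expressed coding genes on each side of all 12 silent genes, 77 further genes were tested and 12 were called, 7 lower and 5 higher, to be read against the 14.9% of all coding genes. Beside BMP5, HMGCLL1 (174 kb away) had 33 and 206 counts in the M1 libraries and 11 and 3 in those of M3. COL21A1 (181 kb away) had 43 and 265 in M1 and 16 and 25 in M3. Both were called lower, and the other neighbours of BMP5 were not called.

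In 1 cluster on chromosome 19, 3 zinc finger genes were at 0 in M3. Zinc finger proteins with a KRAB domain repress transcription, and their genes lie in tandem arrays of near copies, so the reads that distinguish members are few and their counts are uncertain to that extent. ZNF44 (chr19:12335501-12405698) had 400 and 366 counts in the M1 libraries and 0 and 0 in those of M3, at least 129-fold lower. ZNF799 (chr19:12500830-12512085) had 122 and 138 counts in the M1 libraries and 0 and 0 in those of M3, at least 43.7-fold lower, and ZNF443 next to it had 66 and 141 counts in the M1 libraries and 0 and 0 in those of M3, at least 34.8-fold lower, although its M1 counts did not reach 100 in both libraries. M4 had ZNF44 at 6 and 3 counts, ZNF799 at 3 and 6 and ZNF443 at 6 and 3, and M2 expressed all of them, ZNF44 with 581 and 309 in M2. Between ZNF44 and ZNF799 lies ZNF563, which had 35 and 0 counts in M1 and 0 in M3. Thus ZNF44, ZNF563, ZNF799 and ZNF443 all had no read in M3. The genes described here, and their order, are those coding genes with at least 20 counts in an M1 or M3 library. Genes of the cluster with fewer counts were not examined. On the side of ZNF627, 3 genes in a row were called lower, ZNF823 (log2 difference -1.30 ± 0.36, adjusted p = 0.039), ZNF441 (log2 difference -2.65 ± 0.54, adjusted p = 0.014) and ZNF440 (log2 difference -4.14 ± 0.55, adjusted p = 0.0029). ZNF700, which lies between ZNF440 and ZNF44, had 605 and 595 counts in the M1 libraries and 569 and 657 in those of M3 (log2 difference 0.02 ± 0.18, adjusted p = 0.96). On the other side, past ZNF443, ZNF564 had 277 and 429 counts in the M1 libraries and 307 and 311 in those of M3 (log2 difference -0.20 ± 0.30, adjusted p = 0.66). Between ZNF700 and ZNF44 lie ZNF20 and ZNF136. ZNF20 had 133 and 162 counts in the M1 libraries and 24 and 0 in those of M3 but did not pass the test (log2 difference -3.57 ± 1.17, adjusted p = 0.066). ZNF136 had 44 and 0 counts in the M1 libraries and 5 and 0 in those of M3 and was not called (log2 difference -3.05 ± 1.92, adjusted p = 0.29). Farther along the same chromosome, ZNF606 (chr19:58488444-58514717) had 155 and 245 counts in the M1 libraries and 0 and 0 in those of M3, at least 67.2-fold lower, and was also at 0 in both M4 libraries.

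**Figure D1:**
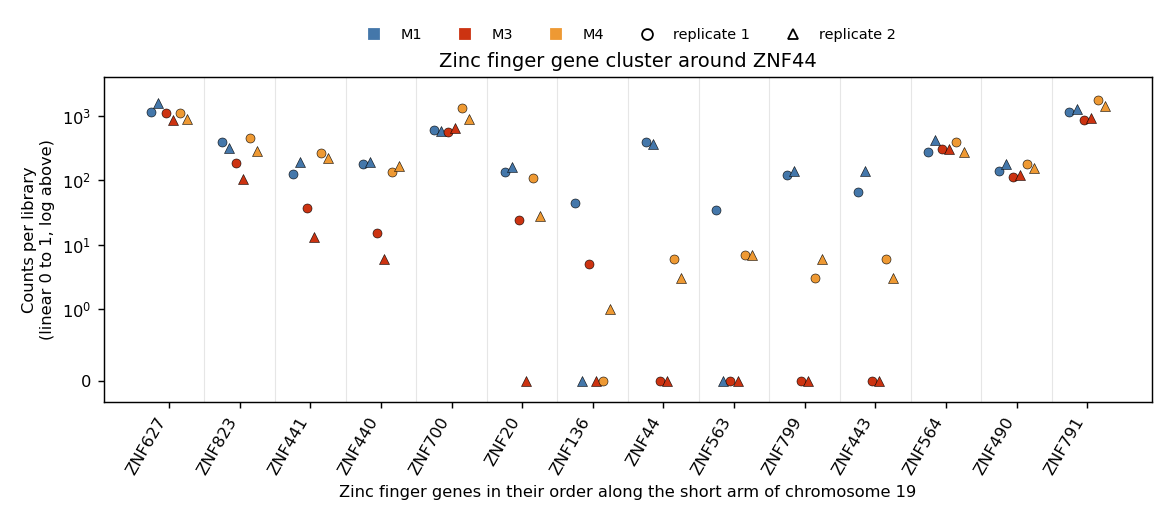
Counts per library (vertical axis, log scale above 1) of the zinc finger genes around ZNF44, in their order along chromosome 19, in M1, M3 and M4. Circles are replicate 1 and triangles replicate 2. ZNF44, ZNF799 and ZNF443 are at 0 in both M3 libraries, while ZNF700 and ZNF564 are at the M1 level. Between ZNF700 and ZNF44 lie ZNF20, at 24 and 0 counts in M3, and ZNF136, at 5 and 0.

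A promoter window was read for 9 of the 12 silent genes, and these windows ranged from poor to rich in CpG. The 250 bases before the start of 4 of them are shown from RefSeq (GRCh38.p14, 5′ to 3′ on the gene's strand), since CpG sites are the targets of DNA methylation, and every CG is in capitals. The search was for the letters CG, which read the same on both strands.
MGMT promoter, chr10:129466991-129467240, plus strand: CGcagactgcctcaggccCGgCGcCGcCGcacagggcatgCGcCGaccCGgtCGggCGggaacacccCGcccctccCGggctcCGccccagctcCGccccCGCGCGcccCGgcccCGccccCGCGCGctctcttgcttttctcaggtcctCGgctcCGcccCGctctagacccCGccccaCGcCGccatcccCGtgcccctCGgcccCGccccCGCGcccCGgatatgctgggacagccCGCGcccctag
ZNF606 promoter, chr19:58002821-58003070, minus strand: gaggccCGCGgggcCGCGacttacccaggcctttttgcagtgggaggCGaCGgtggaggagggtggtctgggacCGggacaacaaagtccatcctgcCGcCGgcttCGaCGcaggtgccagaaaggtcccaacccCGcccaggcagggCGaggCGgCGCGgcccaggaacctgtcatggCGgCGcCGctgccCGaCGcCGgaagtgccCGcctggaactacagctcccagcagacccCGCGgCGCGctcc
ZNF44 promoter, chr19:12294884-12295133, minus strand: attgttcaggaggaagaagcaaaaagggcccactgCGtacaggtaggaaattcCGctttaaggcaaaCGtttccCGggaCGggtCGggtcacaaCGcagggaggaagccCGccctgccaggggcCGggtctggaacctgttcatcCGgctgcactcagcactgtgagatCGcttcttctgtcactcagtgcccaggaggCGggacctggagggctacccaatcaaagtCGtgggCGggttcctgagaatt
ZNF799 promoter, chr19:12401272-12401521, minus strand: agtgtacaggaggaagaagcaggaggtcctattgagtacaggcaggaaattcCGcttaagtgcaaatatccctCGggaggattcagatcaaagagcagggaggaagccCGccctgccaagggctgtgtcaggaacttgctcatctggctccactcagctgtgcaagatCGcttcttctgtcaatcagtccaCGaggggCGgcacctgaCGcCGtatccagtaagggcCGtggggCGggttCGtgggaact
The MGMT window held 36 CpG sites and that of ZNF606 held 27. Among 27305 such windows, 93.6% held at least 1 CpG and the median was 11, and 4.73% held as many as MGMT and 17.3% as many as ZNF606. ZNF44 with 14 and ZNF799 with 11 were near the median. The window read for SNRPN had 6, but it lies before a single RefSeq start of that gene. No window was read for ENSG00000214265, which overlaps SNRPN, so other starts at this locus were not examined. The windows of DSG1, BTBD16, WFDC6 and BMP5 were poor in CpG, with 3, 3, 2 and 1. Methylation was not measured in these libraries. Of the enzymes that write or erase DNA methylation, 9 were tested and 0 were called by edgeR, with 3 at an unadjusted p under 0.05 and 0 calls by DESeq2. Their median log2 difference was 0.09, but -0.30 with M3 replicate 2 left out, a setting in which a lower call was made.

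The other silent genes were at 7 counts or fewer in each M4 library as well. DSG1, a desmosomal cadherin of differentiated squamous cells, had 313 and 158 counts in the M1 libraries and 0 and 0 in those of M3, at least 78.9-fold lower, with 28 and 20 in M2 and 5 and 3 in M4. FMO2, a flavin monooxygenase, had 155 and 355 counts in the M1 libraries and 0 and 0 in those of M3, at least 85.8-fold lower, with 40 and 13 in M2 and 0 and 0 in M4. BMP5, a ligand of the BMP family, had 152 and 288 counts in the M1 libraries and 3 and 1 in those of M3, a ratio of 111-fold (95% interval 43.1 to 409), and 0 and 1 in M4. BTBD16 had 282 and 477 counts in the M1 libraries and 3 and 3 in those of M3, a ratio of 128-fold (95% interval 58.4 to 349), with 953 and 710 in M2 and 2 and 0 in M4, and WFDC6 had 144 and 129 counts in the M1 libraries and 1 and 0 in those of M3, a ratio of 276-fold (95% interval 49 to 10924). FABP4, a carrier of fatty acids, had 7859 and 352 counts in the M1 libraries and 1 and 1 in those of M3, and the M1 libraries differed so much that its ratio of 4144-fold (95% interval 1147 to 34224) describes mainly replicate 1. Counted over the 12 genes, 7 had at least 100 counts in both M2 libraries and 3 in both M4 libraries, and 5 had at most 3 counts in both M4 libraries. The number of silent genes rested on both replicates: it was 19 on leaving out M1 replicate 1, 38 for M1 replicate 2, 23 for M3 replicate 1 and 16 for M3 replicate 2, each time with the 12 among them, and under the exchange it was 9, with 8 of the 12.

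**Figure D2:**
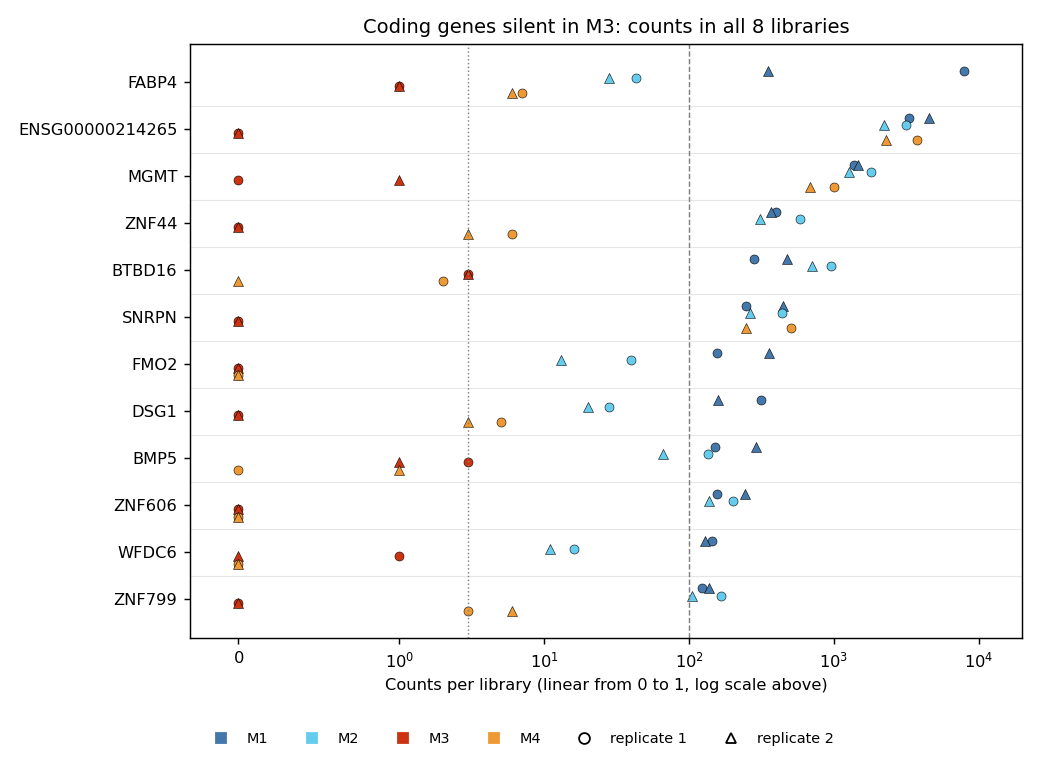
Counts per library (horizontal axis, log scale above 1) of the 12 coding genes silent in M3, ordered by their level in M1. The dotted line marks 3 counts and the dashed line 100. MGMT, SNRPN and ENSG00000214265 are at 0 or 1 count in M3 and at 249 counts or more in M1, M2 and M4.

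In the other direction, 15 of 11425 coding genes with at least 100 counts in both M3 libraries (0.131%) had at most 3 counts in each M1 library. PRSS21, a serine protease normally found in testis, had 0 and 0 counts in the M1 libraries and 4467 and 3659 in those of M3, at least 1351-fold higher against the floor (0.0364 CPM), and was also expressed in M4 (3195 and 1962 in M4). CCND2, which encodes the G1 cyclin D2, had 0 and 0 counts in the M1 libraries and 1074 and 816 in those of M3, at least 315-fold higher, and 0 counts in all M2 and M4 libraries, so its transcripts were found in M3 alone. LRP1B, a large lipoprotein receptor, had 0 and 0 counts in the M1 libraries and 288 and 776 in those of M3, at least 172-fold higher, against 0 and 0 in M2 and 15 and 8 in M4. ZNF32, a zinc finger gene on chromosome 10, had 0 and 0 counts in the M1 libraries and 820 and 983 in those of M3, at least 297-fold higher, and 873 and 620 in M4. BEX2 had 0 and 0 counts in the M1 libraries and 189 and 186 in those of M3, at least 62.1-fold higher, and the homeobox factor ISL2 had 0 and 0 counts in the M1 libraries and 104 and 130 in those of M3, at least 38.5-fold higher. CRISPLD1, a secreted protein with a cysteine-rich domain, had 0 and 0 counts in the M1 libraries and 101 and 118 in those of M3, at least 36.1-fold higher. As a counterpart to the zinc finger genes silent in M3, the window before the ZNF32 start is shown in the same way.
ZNF32 promoter, chr10:43648882-43649131, minus strand: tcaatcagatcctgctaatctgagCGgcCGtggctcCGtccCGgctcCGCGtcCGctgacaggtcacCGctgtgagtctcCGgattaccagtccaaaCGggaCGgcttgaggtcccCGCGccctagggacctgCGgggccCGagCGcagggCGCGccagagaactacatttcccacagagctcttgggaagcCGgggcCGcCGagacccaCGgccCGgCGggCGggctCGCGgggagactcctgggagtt
It held 27 CpG sites, the same number as ZNF606.

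APOBEC3F, a cytidine deaminase that restricts retroviruses, had 1 and 0 counts in the M1 libraries and 654 and 716 in those of M3, a ratio of 1357-fold (95% interval 243 to 53647). Its neighbours in the APOBEC3 array did not move as 1 block. APOBEC3G had 22 and 59 counts in the M1 libraries and 2037 and 2356 in those of M3 (log2 difference 5.74 ± 0.46, adjusted p = 0.00055), APOBEC3B 163 and 283 counts in the M1 libraries and 785 and 627 in those of M3 (log2 difference 1.66 ± 0.31, adjusted p = 0.0097), and APOBEC3C 2600 and 3953 counts in the M1 libraries and 5486 and 5253 in those of M3 (log2 difference 0.70 ± 0.20, adjusted p = 0.045), which was under the 2-fold limit. These genes are close copies, so part of their reads may have been assigned to the wrong member. THY1, a surface glycoprotein of fibroblasts, neurons and some epithelial progenitors, had 1 and 0 counts in the M1 libraries and 481 and 153 in those of M3, a ratio of 628-fold (95% interval 112 to 24847), and it stayed low in M4 (2 and 3 in M4). DTNA, a dystrophin-associated protein, had 0 and 1 counts in the M1 libraries and 323 and 585 in those of M3, SLAIN1, a microtubule regulator, 0 and 1 counts in the M1 libraries and 116 and 355 in those of M3, and GALNT5, which starts O-glycans, 1 and 2 counts in the M1 libraries and 478 and 351 in those of M3. The remaining genes were SPRR2A (2 and 1 counts in the M1 libraries and 199 and 212 in those of M3) and LCE3D (1 and 2 counts in the M1 libraries and 133 and 269 in those of M3), both structural proteins of the cornified envelope, and NT5DC4 (3 and 1 counts in the M1 libraries and 113 and 144 in those of M3). NT5DC4 overlaps CKAP2L, which had 804 and 688 counts in the M1 libraries and 4744 and 3944 in those of M3. The division of reads between these overlapping genes is uncertain. Of the 15 genes, 0 had at least 100 counts in both M2 libraries and 6 did in both M4 libraries. Among 119 neighbours tested, 18 were called, 16 higher and 2 lower. The number of genes silent in M1 was 27 on leaving out either M1 replicate, 20 for M3 replicate 1, 22 for M3 replicate 2 and 11 under the exchange, with 10 of the 15.

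**Figure D3:**
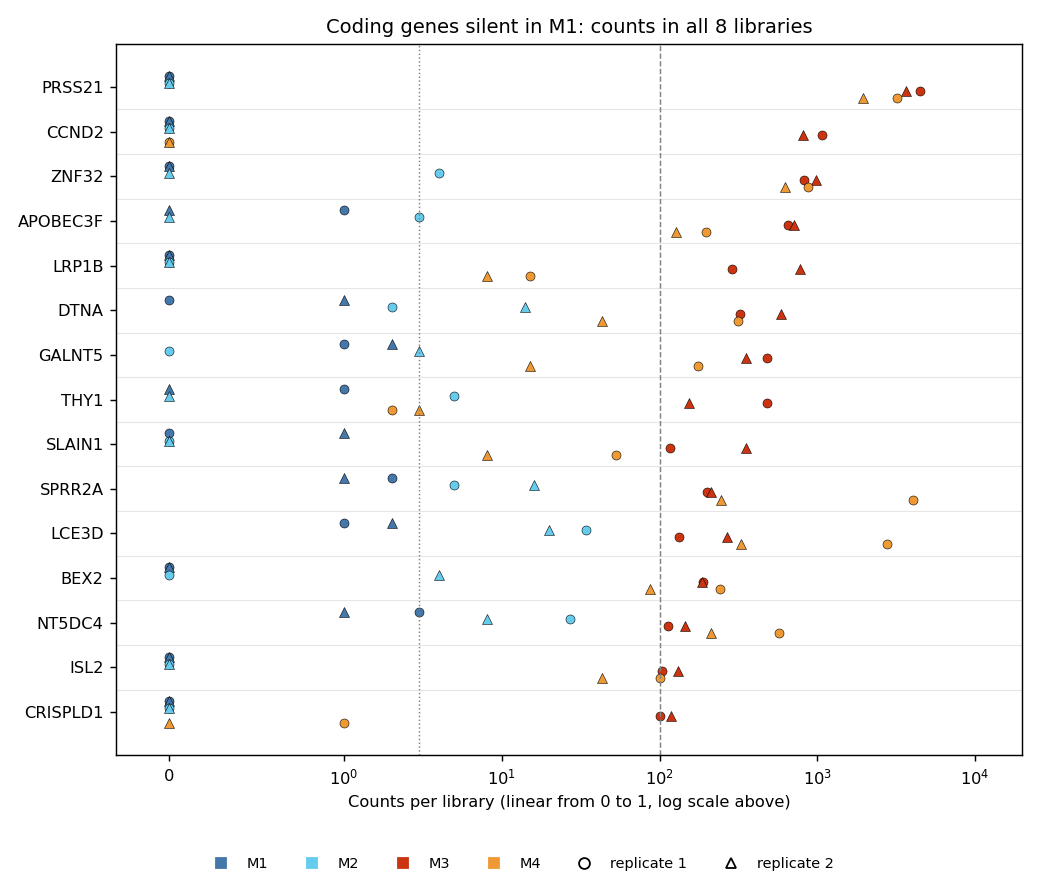
Counts per library (horizontal axis, log scale above 1) of the 15 coding genes silent in M1, ordered by their level in M3. The dotted line marks 3 counts and the dashed line 100. CCND2 stands at 0 in M1, M2 and M4 and at 1074 and 816 counts in the M3 libraries.

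Some of the largest called differences were in genes with a few counts in the lower line. PDE1C, a calmodulin-dependent phosphodiesterase that degrades cyclic nucleotides, rose from 0.145 and 0.183 CPM in M1 to 46.9 and 26.8 CPM in M3 (log2 difference 7.80 ± 0.49, adjusted p = 0.00029). BMP7, a BMP ligand, had 4 and 2 counts in the M1 libraries and 647 and 1045 in those of M3, a ratio of 279-fold (95% interval 128 to 762), in the line that had lost BMP5. S100B, a calcium-binding protein better known from glia, rose from 0 and 0.0854 CPM in M1 to 9.06 and 21.3 CPM in M3 (log2 difference 8.43 ± 1.06, adjusted p = 0.0036), with 0 and 0 in M4. On the lower side, DAPL1 fell from 13.1 and 37.6 CPM in M1 to 0.0884 and 0 CPM in M3 (log2 difference -9.17 ± 1.05, adjusted p = 0.0028). CYP4Z1, a mammary cytochrome P450, fell from 16.6 and 47.1 CPM in M1 to 0.0379 and 0.23 CPM in M3 (log2 difference -7.85 ± 0.82, adjusted p = 0.0013). KLK7, a kallikrein protease that cleaves desmosomes in skin, fell from 21.4 and 9.01 CPM in M1 to 0.101 and 0.023 CPM in M3 (log2 difference -7.93 ± 0.74, adjusted p = 0.00084). CALML5, a calmodulin-like protein of differentiating keratinocytes, had 830 and 720 counts in the M1 libraries and 4 and 1 in those of M3, a ratio of 313-fold (95% interval 134 to 965). KRT13, a keratin of stratified epithelia, was called lower with M1 libraries that lay far apart, at 30.6 and 2.56 CPM in M1 and 0.0758 and 0.0115 CPM in M3 (log2 difference -8.56 ± 1.77, adjusted p = 0.016). PDE1C, BMP7, S100B and KLK7 were also called under the exchange, while DAPL1, CYP4Z1, CALML5 and KRT13 were not.

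HRAS, the gene introduced at the start of this series of lines, rose from 154 and 139 CPM in M1 to 269 and 327 CPM in M3 (log2 difference 1.03 ± 0.15, adjusted p = 0.0038), a difference just past 2-fold, and it read 159.8 and 154 CPM in M2. The counts do not separate the transgene from the endogenous gene. NRAS rose from 32.4 and 39.8 CPM in M1 to 80.8 and 67.8 CPM in M3 (log2 difference 1.04 ± 0.15, adjusted p = 0.0041). RASA1, a GTPase-activating protein that switches RAS off, rose from 28 and 30.1 CPM in M1 to 62.2 and 59.8 CPM in M3 (log2 difference 1.07 ± 0.12, adjusted p = 0.0016). RASGRP1, an exchange factor that switches RAS on, rose most in this group, from 0.29 and 0.695 CPM in M1 to 5.43 and 5.32 CPM in M3 (log2 difference 3.44 ± 0.49, adjusted p = 0.0037). Of 12 genes of the RAS list tested, these 4 were called (1 and 0 under the exchange), with a median log2 difference of 0.60. EGFR did not pass the test, at 203 and 192 CPM in M1 and 318 and 248 CPM in M3 (log2 difference 0.52 ± 0.17, adjusted p = 0.06). PDCD4, a translation inhibitor described as a tumor suppressor, fell from 299 and 176 CPM in M1 to 78.3 and 56.6 CPM in M3 (log2 difference -1.82 ± 0.27, adjusted p = 0.004). HRAS, NRAS and PDCD4 were called in the fit of M1 and M3 alone and none of them was called under the exchange, with HRAS at an adjusted p of 0.066 and PDCD4 at 0.055. HRAS also fell under 2-fold without M1 replicate 2, at 0.96, and without M3 replicate 2, at 0.88.

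M3 grew without added EGF and its own EGF-family ligand transcripts were high. Of 10 ligand genes, 6 were called, each of them higher, and all 10 had a log2 difference above 0, with a median of 2.12. EREG, encoding epiregulin, rose from 0.749 and 0.768 CPM in M1 to 47.8 and 87.6 CPM in M3 (log2 difference 6.48 ± 0.35, adjusted p = 0.00024). AREG, encoding amphiregulin, rose from 25.8 and 90.4 CPM in M1 to 607 and 812 CPM in M3 (log2 difference 3.61 ± 0.56, adjusted p = 0.0059). TGFA rose from 21.4 and 12.1 CPM in M1 to 170.5 and 129 CPM in M3 (log2 difference 3.16 ± 0.29, adjusted p = 0.00082), NRG1, a ligand of ERBB3 and ERBB4, from 0.701 and 1.13 CPM in M1 to 7.74 and 6.53 CPM in M3 (log2 difference 2.96 ± 0.44, adjusted p = 0.0043), and HBEGF from 5.22 and 8.34 CPM in M1 to 23.4 and 41.9 CPM in M3 (log2 difference 2.27 ± 0.31, adjusted p = 0.0031). BTC, encoding betacellulin, rose from 0.725 and 1.31 CPM in M1 to 3.63 and 4.37 CPM in M3 (log2 difference 1.98 ± 0.50, adjusted p = 0.029). EGF itself was barely transcribed, at 0.23 and 0.122 CPM in M1 and 0.543 and 0.471 CPM in M3, and was not called. For every called ligand, both M3 libraries lay above both M1 libraries. With 1 library left out, 5 to 7 ligands were called, and under the exchange 2 were called, TGFA and NRG1. On the receptor side, ERBB3 fell from 60.4 and 44.5 CPM in M1 to 10.3 and 12 CPM in M3 (log2 difference -2.23 ± 0.28, adjusted p = 0.0022). SOCS2, a suppressor of cytokine and growth factor signalling, rose from 5.32 and 4.62 CPM in M1 to 11.7 and 13.5 CPM in M3 (log2 difference 1.34 ± 0.21, adjusted p = 0.0047). The other 5 receptor and inhibitor genes tested, EGFR among them, were not called.

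Targets and feedback inhibitors of ERK followed the same direction. Of 24 genes tested, 14 were called, each of them higher, with a median log2 difference of 1.48. The phosphatases that inactivate ERK included DUSP6, which rose from 38.2 and 99.1 CPM in M1 to 458 and 444 CPM in M3 (log2 difference 2.72 ± 0.41, adjusted p = 0.0047). DUSP5, of the same family, rose from 3.83 and 3.56 CPM in M1 to 22.8 and 23 CPM in M3 (log2 difference 2.63 ± 0.17, adjusted p = 0.00031). Of the Sprouty and SPRED feedback inhibitors, SPRY4 (2.09 ± 0.38), SPRED1 (1.52 ± 0.39) and SPRED2 (1.77 ± 0.37) were called, and SPRY2 was not (log2 difference 1.31 ± 0.51, adjusted p = 0.11). The ETS factors ETV4, ETV5 and ETV1 rose by 1.35 ± 0.35, 2.16 ± 0.33 and 1.33 ± 0.32. FOSL1, an AP-1 subunit, rose from 10.6 and 15.4 CPM in M1 to 76.2 and 86.6 CPM in M3 (log2 difference 2.65 ± 0.20, adjusted p = 0.00042). FOS read 19.7 and 58.7 CPM in M1 and 140.1 and 88.1 CPM in M3 and was not called. HMGA2, a chromatin protein usually limited to embryonic tissue, rose from 3.9 and 7.84 CPM in M1 to 50.3 and 46.5 CPM in M3 (log2 difference 3.04 ± 0.31, adjusted p = 0.0011). LIF, a cytokine of the IL-6 family, rose from 3.32 and 8.9 CPM in M1 to 36.7 and 71.3 CPM in M3 (log2 difference 3.14 ± 0.50, adjusted p = 0.0063). CCND1, the G1 cyclin downstream of ERK, rose from 61.3 and 76.3 CPM in M1 to 124 and 175 CPM in M3 (log2 difference 1.12 ± 0.19, adjusted p = 0.0072). M1 replicate 2 was above replicate 1 for most of the called genes. The calls higher and lower were 9 and 1, 18 and 0, 11 and 0, 9 and 0 on leaving out M1 replicate 1, M1 replicate 2, M3 replicate 1 and M3 replicate 2 in turn. They were 9 and 0 in the fit of M1 and M3 alone and 2 and 0 under the exchange.

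**Figure D4:**
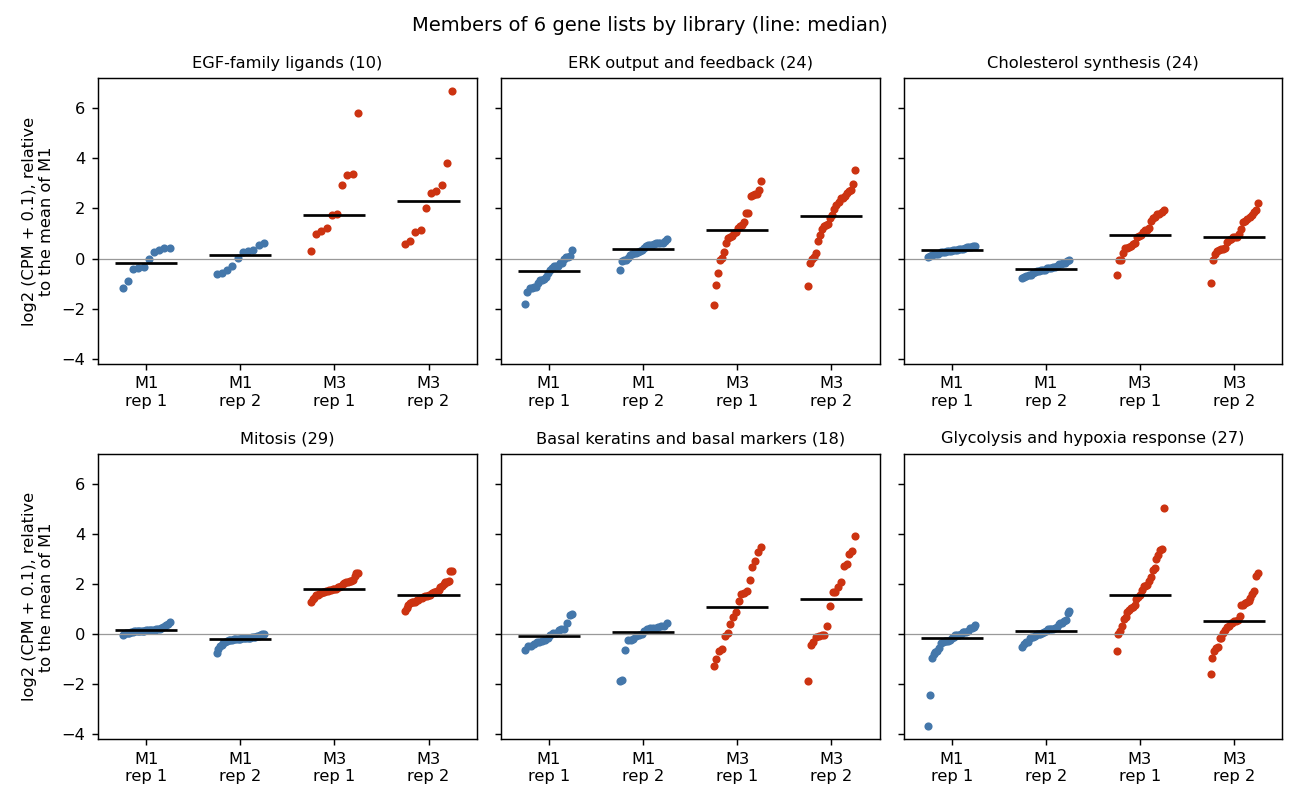
Each point is 1 gene in 1 library, as log2 of CPM plus 0.1 relative to the mean of the M1 libraries (vertical axis), for 6 gene lists, and black lines are medians. Both M3 libraries lie above both M1 libraries in the medians of every panel, and the 2 M3 libraries differ most for glycolysis and hypoxia response, with medians of 1.56 and 0.53.

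Genes of cell division were higher in M3. All 29 mitosis genes tested were called higher, with log2 differences from 1.29 to 2.50 and a median of 1.69. Their summed level was 1336 and 1037 CPM in M1 and 4002 and 3423 CPM in M3. NUF2, a kinetochore subunit, rose from 6.41 and 5.57 CPM in M1 to 33.5 and 34.5 CPM in M3 (log2 difference 2.50 ± 0.18, adjusted p = 0.00037), and CENPA, the histone variant of centromeres, from 7.2 and 5.88 CPM in M1 to 36 and 29.2 CPM in M3 (log2 difference 2.32 ± 0.19, adjusted p = 0.00055). The kinase TTK of the spindle checkpoint rose from 14.5 and 11.1 CPM in M1 to 65.5 and 54.1 CPM in M3 (log2 difference 2.22 ± 0.20, adjusted p = 0.00079). CCNB1 and CDK1, which together drive entry into mitosis, rose by 1.52 ± 0.19 and 1.92 ± 0.26, and TOP2A, which untangles DNA, rose from 149 and 122 CPM in M1 to 364 and 300.3 CPM in M3 (log2 difference 1.29 ± 0.20, adjusted p = 0.0047). MKI67, the proliferation marker, rose from 114 and 57.1 CPM in M1 to 211 and 292 CPM in M3 (log2 difference 1.56 ± 0.37, adjusted p = 0.025). Of 26 replication genes, 12 were called (0 and 0 under the exchange), each of them higher, and all 26 were above 0, with a median of 0.96, which was 0.31 under the exchange. RRM2, a subunit of the enzyme that makes deoxynucleotides, rose from 75.8 and 43 CPM in M1 to 211 and 249 CPM in M3 (log2 difference 1.96 ± 0.26, adjusted p = 0.0029), RFC4 of the clamp loader from 13.5 and 13.5 CPM in M1 to 48.2 and 50.5 CPM in M3 (log2 difference 1.87 ± 0.15, adjusted p = 0.00055), and GINS2 of the replicative helicase from 14.3 and 15.3 CPM in M1 to 49.9 and 47.4 CPM in M3 (log2 difference 1.71 ± 0.13, adjusted p = 0.00054). M2, grown with EGF, also held more of these transcripts than M1, with MKI67 at 236 and 221 CPM in M2 and NUF2 at 22.1 and 19.9 CPM in M2. The mitosis count was 27 to 29 with 1 library left out and 27 in the fit of M1 and M3 alone. It was 0 under the exchange by edgeR, where the library labelled M2 replicate 1 counts as M1 and the median fell to 0.78.

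Among the regulators of G1, 6 of 18 were called (1 and 0 under the exchange), each of them higher. Besides CCND2 and CCND1, CDK6, a partner of the D cyclins, rose from 45.2 and 35.3 CPM in M1 to 69.1 and 104 CPM in M3 (log2 difference 1.11 ± 0.24, adjusted p = 0.016). CDK2 rose from 26.4 and 25.4 CPM in M1 to 56.4 and 50.5 CPM in M3 (log2 difference 1.05 ± 0.13, adjusted p = 0.0025). RBL1, a relative of the retinoblastoma protein, rose by 1.20 ± 0.21. CDKN2C, an inhibitor of CDK4 and CDK6, rose from 9.03 and 7.45 CPM in M1 to 16.9 and 16.4 CPM in M3 (log2 difference 1.01 ± 0.25, adjusted p = 0.026), with 2.85 and 4.45 CPM in M4. CDKN1C, encoding the inhibitor p57, had M1 libraries that lay far apart, at 64.4 and 0.354 CPM in M1 and 3.7 and 0.953 CPM in M3, and its log2 difference of -3.80 ± 1.73 did not pass the test. Of 20 genes of the p53 response, 1 was called higher, PLK3 (1.08 ± 0.21), and 1 lower (0 and 0 under the exchange). The latter was TP53INP1, which fell from 41.7 and 32.8 CPM in M1 to 9.22 and 6.35 CPM in M3 (log2 difference -2.26 ± 0.26, adjusted p = 0.0017).

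Transcripts of cholesterol synthesis were higher in M3, with 10 of 24 genes called, each of them higher, and a median of 0.93. The largest difference was in HMGCS1, which makes HMG-CoA, from 81.8 and 51.5 CPM in M1 to 212 and 306 CPM in M3 (log2 difference 1.96 ± 0.28, adjusted p = 0.0037). FDPS, which makes farnesyl pyrophosphate, the lipid attached to RAS proteins, rose from 174 and 135 CPM in M1 to 557 and 599 CPM in M3 (log2 difference 1.91 ± 0.17, adjusted p = 0.00077). The sterol sensor INSIG1 (1.80 ± 0.37) and the sterol carrier STARD4 (1.78 ± 0.25) were also called. ACAT2, which makes acetoacetyl-CoA in the cytosol, rose from 38.4 and 20.3 CPM in M1 to 102 and 81 CPM in M3 (log2 difference 1.64 ± 0.28, adjusted p = 0.0071), with 0.511 and 0.551 CPM in M4. For each of the 10 called genes M1 replicate 1 was above replicate 2, with list totals of 3130 and 1969 CPM in M1 and 4271 and 4573 CPM in M3. The calls higher and lower were 17 and 0, 8 and 0, 7 and 0, 8 and 0 on leaving out M1 replicate 1, M1 replicate 2, M3 replicate 1 and M3 replicate 2 in turn. They were 6 and 0 in the fit of M1 and M3 alone and 0 and 0 under the exchange. Of 14 genes of fatty acid synthesis and lipid uptake, 2 were called higher and 3 lower (0 and 1 under the exchange), with a median of 0.29. In the fit of M1 and M3 alone, 1 was called higher and 1 lower. The median of this list depended on the M1 library used, at 0.92 with replicate 1 left out and -0.09 with replicate 2 left out. The desaturase SCD rose from 1211 and 643 CPM in M1 to 2488 and 2157 CPM in M3 (log2 difference 1.33 ± 0.28, adjusted p = 0.016). ACSS2, which makes acetyl-CoA from acetate, rose from 77.6 and 55.6 CPM in M1 to 140.0 and 145 CPM in M3 (log2 difference 1.10 ± 0.19, adjusted p = 0.0071). The difference of ACSS2 fell under 2-fold, to a log2 value of 0.88, with M1 replicate 2 left out. The fatty acid transporter CD36 fell from 141 and 72.5 CPM in M1 to 1.05 and 0.276 CPM in M3 (log2 difference -7.35 ± 0.88, adjusted p = 0.0025), together with FABP4 (above) and the elongase ELOVL5 (-1.07 ± 0.31).

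Glycolysis and the response to low oxygen showed 11 of 27 genes called, each of them higher, with a median of 1.14, but here the M3 libraries disagreed. SLC16A3, which exports lactate, rose from 143 and 116 CPM in M1 to 628 and 655 CPM in M3 (log2 difference 2.31 ± 0.16, adjusted p = 0.00034). The hexokinase gene HK2 rose from 54.6 and 62.1 CPM in M1 to 199 and 191 CPM in M3 (log2 difference 1.74 ± 0.13, adjusted p = 0.00042). Both were at like levels in the M3 libraries. LDHA, which makes lactate, rose from 1243 and 1683 CPM in M1 to 5574 and 3323 CPM in M3 (log2 difference 1.60 ± 0.28, adjusted p = 0.0072). NDRG1, a gene induced by hypoxia, read 217 and 136 CPM in M1 and 1569 and 444 CPM in M3 (log2 difference 2.51 ± 0.54, adjusted p = 0.018), ENO2 read 0.338 and 0.866 CPM in M1 and 22.9 and 3.78 CPM in M3 (log2 difference 4.46 ± 0.87, adjusted p = 0.012), and ALDOC 7.42 and 16.7 CPM in M1 and 128 and 29.5 CPM in M3 (log2 difference 2.71 ± 0.67, adjusted p = 0.03), with M3 replicate 1 several times above replicate 2. CA9, a carbonic anhydrase and a standard hypoxia marker, was at 1.6 and 41.7 CPM in M1 and 175 and 22.1 CPM in M3, with 1 high library in each line, and was not called. The calls higher and lower were 5 and 0, 11 and 0, 8 and 0, 15 and 0 on leaving out M1 replicate 1, M1 replicate 2, M3 replicate 1 and M3 replicate 2 in turn. They were 4 and 0 in the fit of M1 and M3 alone and 0 and 0 under the exchange. Whether oxygen differed between these cultures was not tested.

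Basal epithelial genes were expressed in both lines and many were higher in M3. Of 18 basal genes, 9 were called higher and 1 lower (2 and 0 under the exchange), with a median of 1.33. LAMA3 and LAMB3 encode chains of laminin-332, the adhesive laminin of the epithelial basement membrane. LAMA3 rose from 98.2 and 134 CPM in M1 to 747 and 1064 CPM in M3 (log2 difference 2.96 ± 0.24, adjusted p = 0.00055) and LAMB3 from 183 and 319.6 CPM in M1 to 758 and 807 CPM in M3 (log2 difference 1.64 ± 0.25, adjusted p = 0.0047). Both chains of the laminin receptor in hemidesmosomes rose, ITGA6 by 1.75 ± 0.30 and ITGB4 from 737 and 767 CPM in M1 to 2347 and 2410 CPM in M3 (log2 difference 1.66 ± 0.15, adjusted p = 0.00077). KRT6B, a keratin of activated keratinocytes, rose from 196 and 343 CPM in M1 to 2616 and 2732 CPM in M3 (log2 difference 3.31 ± 0.28, adjusted p = 0.00059). KRT17 rose from 1140 and 1656 CPM in M1 to 4590 and 5179 CPM in M3 (log2 difference 1.80 ± 0.28, adjusted p = 0.0047). KRT14 rose from 17.7 and 8.26 CPM in M1 to 99.7 and 91.1 CPM in M3 (log2 difference 2.88 ± 0.33, adjusted p = 0.0016). KRT15, the exception, fell from 6412 and 5050 CPM in M1 to 2380 and 1584 CPM in M3 (log2 difference -1.53 ± 0.25, adjusted p = 0.0057). KRT5 read 8414 and 6203 CPM in M1 and 7056 and 5365 CPM in M3 and TP63 89.6 and 108 CPM in M1 and 61.4 and 80.2 CPM in M3, neither called. Of 10 contractile myoepithelial genes, MYLK alone was called, rising from 4.1 and 1.51 CPM in M1 to 12.5 and 13.5 CPM in M3 (log2 difference 2.21 ± 0.46, adjusted p = 0.015).

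Luminal genes moved in both directions. Of 17 tested, 2 were called higher and 4 lower (0 and 1 under the exchange), with a median of -0.86. GATA3, the factor that specifies luminal cells, fell from 74.7 and 98.4 CPM in M1 to 18 and 15.4 CPM in M3 (log2 difference -2.37 ± 0.18, adjusted p = 0.0005). The ETS factor EHF fell from 80.8 and 143 CPM in M1 to 29.2 and 23.6 CPM in M3 (log2 difference -2.09 ± 0.29, adjusted p = 0.0033). The mucin MUC1 fell from 56.5 and 32.2 CPM in M1 to 6.35 and 5.8 CPM in M3 (log2 difference -2.87 ± 0.33, adjusted p = 0.0016). SPDEF, a further ETS factor, fell from 2.61 and 3.84 CPM in M1 to 0 and 0.333 CPM in M3 (log2 difference -4.25 ± 1.17, adjusted p = 0.039). KRT18 rose from 414 and 445 CPM in M1 to 1023 and 965 CPM in M3 (log2 difference 1.21 ± 0.22, adjusted p = 0.0087). The adhesion molecule EPCAM rose from 49.9 and 72.6 CPM in M1 to 117 and 184 CPM in M3 (log2 difference 1.30 ± 0.25, adjusted p = 0.012). KRT8 read 723 and 788 CPM in M1 and 1262 and 1094 CPM in M3 and was not called (log2 difference 0.64 ± 0.25, adjusted p = 0.1), and ESR1, the estrogen receptor, was low in all 4 libraries, at 4.01 and 1.21 CPM in M1 and 1.54 and 0.758 CPM in M3.

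Genes of squamous differentiation also split. The keratins KRT1, KRT10 and KRT13 were called lower, but their M1 level came largely from replicate 1, with KRT10 at 836 and 96.9 CPM in M1 and 19.1 and 15.9 CPM in M3 (log2 difference -4.74 ± 0.90, adjusted p = 0.012) and KRT1 at 70.8 and 0.378 CPM in M1 and 0 and 0.0115 CPM in M3. The cornified envelope gene SPRR2D rose from 0.157 and 0.0122 CPM in M1 to 14.6 and 20.9 CPM in M3 (log2 difference 7.68 ± 0.99, adjusted p = 0.0031), beside SPRR2A, described above. Over 21 genes, 2 were called higher and 4 lower (0 and 0 under the exchange). Without M1 replicate 1 the calls were 2 higher and 3 lower, and without M3 replicate 1 they were 1 and 1. Among 12 kallikreins and their inhibitors, KLK7 and KLK8 were called lower and the inhibitors SPINK5 and SPINK6 higher (0 and 1 under the exchange). SPINK5 rose from 2.13 and 1.67 CPM in M1 to 12.5 and 9.98 CPM in M3 (log2 difference 2.56 ± 0.45, adjusted p = 0.008). KLK8 fell from 5.89 and 4.65 CPM in M1 to 1.14 and 0.149 CPM in M3 (log2 difference -3.04 ± 0.88, adjusted p = 0.046). In the SERPINB cluster, 3 of 8 were higher and 2 lower (1 and 0 under the exchange), with SERPINB5, known as maspin, rising from 567 and 409 CPM in M1 to 1059 and 1110 CPM in M3 (log2 difference 1.15 ± 0.19, adjusted p = 0.0058).

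Of the tight junction and desmosome lists, 20% and 13.3% of members were called, against 14.9% of all coding genes. Most of these calls were lower, a direction called in 5.67% of all coding genes. Of 25 tight junction and E-cadherin genes, 4 were called lower and 1 higher (0 and 0 under the exchange), with a median of -0.16. CLDN8, a claudin, fell from 8.88 and 12.4 CPM in M1 to 0.114 and 0.356 CPM in M3 (log2 difference -5.48 ± 0.55, adjusted p = 0.0011). The junction scaffold gene CGN, encoding cingulin, was also called lower, and TJP3 fell from 20.0 and 19.8 CPM in M1 to 2.87 and 4.34 CPM in M3 (log2 difference -2.46 ± 0.45, adjusted p = 0.0089). GRHL2, a factor that maintains epithelial junctions, fell from 80.1 and 55.7 CPM in M1 to 23.5 and 32.1 CPM in M3 (log2 difference -1.29 ± 0.23, adjusted p = 0.0079). CDH1, encoding E-cadherin, read 185 and 220.1 CPM in M1 and 126 and 148 CPM in M3 and was not called, since its difference was under 2-fold (log2 difference -0.56 ± 0.15, adjusted p = 0.032). Of 15 desmosome genes, DSG1 and DSP were called lower (0 and 0 under the exchange), DSP from 1910 and 1066 CPM in M1 to 729 and 645 CPM in M3 (log2 difference -1.12 ± 0.27, adjusted p = 0.026).

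Transcripts of matrix proteins differed in both directions. Of 22 collagen genes, 6 were called higher and 2 lower (1 and 1 under the exchange), and the chains of collagen IV, the network of basement membranes, went both ways. COL4A1 rose from 5.97 and 10.6 CPM in M1 to 25.4 and 52.6 CPM in M3 (log2 difference 2.23 ± 0.39, adjusted p = 0.0079) and COL4A2 from 15.2 and 24.2 CPM in M1 to 63.7 and 133 CPM in M3 (log2 difference 2.32 ± 0.35, adjusted p = 0.0047). COL4A5 fell from 123 and 209.9 CPM in M1 to 57 and 71.3 CPM in M3 (log2 difference -1.38 ± 0.25, adjusted p = 0.0086) and COL4A6 from 87.6 and 137 CPM in M1 to 38.6 and 41.6 CPM in M3 (log2 difference -1.49 ± 0.21, adjusted p = 0.0036). COL8A1 rose from 2.77 and 4.87 CPM in M1 to 51.6 and 82.4 CPM in M3 (log2 difference 4.13 ± 0.53, adjusted p = 0.0027). COL9A3, a collagen of cartilage, rose from 1.4 and 1.31 CPM in M1 to 34 and 129 CPM in M3 (log2 difference 5.91 ± 0.70, adjusted p = 0.0023). In the system that activates plasminogen, PLAUR, the urokinase receptor, rose from 8.77 and 10.9 CPM in M1 to 81.3 and 64.9 CPM in M3 (log2 difference 2.89 ± 0.18, adjusted p = 0.00029). The inhibitor SERPINE2 rose from 7.25 and 17.7 CPM in M1 to 153 and 576 CPM in M3 (log2 difference 4.87 ± 0.71, adjusted p = 0.0047). Of 20 proteases and inhibitors, 5 were called higher and 1 lower (1 and 0 under the exchange), the latter MMP13, with 84 and 48 counts in the M1 libraries and 0 and 4 in those of M3 and a ratio of 33.3-fold (95% interval 12.7 to 124).

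Mesenchymal genes gave 4 calls higher among 23 (1 and 0 under the exchange). CDH11 (0 and 42 counts in the M1 libraries and 389 and 1764 in those of M3), THY1, LOX and NNMT were called, LOX rising from 61.3 and 35.3 CPM in M1 to 233 and 110.2 CPM in M3 (log2 difference 1.83 ± 0.37, adjusted p = 0.013). VIM, encoding vimentin, read 55.5 and 408 CPM in M1 and 1899 and 1100 CPM in M3 and did not pass the test (log2 difference 2.69 ± 0.80, adjusted p = 0.052), with M1 libraries that differed, and CDH2 and FN1 were at 1.84 and 2.9 CPM in M1 and 2.35 and 4.39 CPM in M3 and at 47.5 and 85.4 CPM in M1 and 122 and 143 CPM in M3, neither called. NT5E, the ectonucleotidase CD73 and a marker of mesenchymal and progenitor cells, rose from 6.36 and 4.53 CPM in M1 to 318 and 212 CPM in M3 (log2 difference 5.61 ± 0.31, adjusted p = 0.00024), the largest called difference among the lists of stem cell markers and YAP targets. WWTR1, encoding the coactivator TAZ, rose from 47.3 and 72.6 CPM in M1 to 184 and 249 CPM in M3 (log2 difference 1.85 ± 0.27, adjusted p = 0.004), yet of 18 genes of the YAP list 3 were called higher and 1 lower (1 and 0 under the exchange), with a median of 0.10. Of 13 stem and progenitor markers, 5 were called (0 and 0 under the exchange), each of them higher, among them ALDH1A3, from 92.6 and 69.1 CPM in M1 to 164 and 222 CPM in M3 (log2 difference 1.25 ± 0.23, adjusted p = 0.0085), and ITGB1 by 1.11 ± 0.17.

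Secreted inflammatory signals were selectively higher. CXCL8, the neutrophil chemokine IL-8, rose from 1.11 and 1.95 CPM in M1 to 76 and 61.9 CPM in M3 (log2 difference 5.49 ± 0.37, adjusted p = 0.00034). CXCL1 rose from 7.7 and 18.3 CPM in M1 to 99.9 and 107 CPM in M3 (log2 difference 2.99 ± 0.54, adjusted p = 0.0098). CXCL14 fell from 25.2 and 10.2 CPM in M1 to 0.227 and 0.367 CPM in M3 (log2 difference -5.88 ± 0.63, adjusted p = 0.0013). These were among 3 chemokines of 13 called higher and 1 lower (1 and 0 under the exchange). Of 23 cytokines and IL-1 family genes, 9 were called higher and 2 lower (4 and 1 under the exchange). IL1A rose from 2.59 and 0.378 CPM in M1 to 33.9 and 35.9 CPM in M3 (log2 difference 4.55 ± 0.75, adjusted p = 0.0071), IL1B from 0.834 and 0.427 CPM in M1 to 13.7 and 8.85 CPM in M3 (log2 difference 4.16 ± 0.56, adjusted p = 0.0031) and the coreceptor IL1RAP from 10.7 and 33.7 CPM in M1 to 115 and 168 CPM in M3 (log2 difference 2.67 ± 0.49, adjusted p = 0.011). The signalling receptor IL1R1 fell from 69.9 and 86.6 CPM in M1 to 7.87 and 7.28 CPM in M3 (log2 difference -3.37 ± 0.29, adjusted p = 0.00061). CSF2, encoding GM-CSF, had 0 and 0 counts in the M1 libraries and 25 and 43 in those of M3, at least 11.1-fold higher, a low level. Of 14 inflammasome and gasdermin genes, PYCARD alone was called, lower, at 44.4 and 50.5 CPM in M1 and 29.6 and 15.9 CPM in M3 (log2 difference -1.06 ± 0.28, adjusted p = 0.041), a call lost on leaving out either M1 replicate or M3 replicate 2.

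The S100 and antimicrobial list had 8 of 17 members called higher and 1 lower (1 and 0 under the exchange), with a median of 1.16. S100A2, a p63 target of basal cells, rose from 1622 and 1720 CPM in M1 to 13794 and 10623 CPM in M3 (log2 difference 2.87 ± 0.24, adjusted p = 0.00057). S100A10, a partner of annexin A2, rose from 337 and 345 CPM in M1 to 1553 and 987 CPM in M3 (log2 difference 1.90 ± 0.25, adjusted p = 0.0028). PI3, the elastase inhibitor elafin, rose from 9.68 and 2.92 CPM in M1 to 448 and 411 CPM in M3 (log2 difference 6.09 ± 0.63, adjusted p = 0.0015). DEFB1, a constitutive defensin, fell from 8.99 and 12.8 CPM in M1 to 0.455 and 0.0689 CPM in M3 (log2 difference -5.38 ± 0.79, adjusted p = 0.004). S100A9 rose from 33.4 and 16 CPM in M1 to 61.6 and 117 CPM in M3 (log2 difference 1.86 ± 0.40, adjusted p = 0.017), whereas S100A8 read 8.22 and 3.04 CPM in M1 and 4.69 and 7.21 CPM in M3 and was not called (log2 difference 0.08 ± 0.49, adjusted p = 0.93).

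Of 30 interferon-stimulated genes, 2 were called (1 and 0 under the exchange), both higher, with a median of 0.10. These were BST2, the membrane protein tetherin, which rose from 0.689 and 1.96 CPM in M1 to 105 and 75.8 CPM in M3 (log2 difference 6.09 ± 0.48, adjusted p = 0.00055), and OAS2, from 0.0604 and 0.171 CPM in M1 to 13.1 and 7 CPM in M3 (log2 difference 6.43 ± 1.33, adjusted p = 0.016). ISG15 read 3.84 and 2.79 CPM in M1 and 2.78 and 1.94 CPM in M3 (log2 difference -0.49 ± 0.81, adjusted p = 0.7) and was not called. In antigen presentation, HLA-B rose from 12.3 and 17.5 CPM in M1 to 50.1 and 47.1 CPM in M3 (log2 difference 1.70 ± 0.34, adjusted p = 0.012), and 2 of 15 class I genes were called higher and 1 lower (0 and 0 under the exchange). The class II genes were low, and of 9 tested 2 were called higher and 1 lower (0 and 0 under the exchange). In the fit of M1 and M3 alone, 1 was called higher and 0 lower. HLA-DQB1 had 0 and 0 counts in the M1 libraries and 119 and 90 in those of M3. The lower call was CIITA, their master regulator, which fell from 0.798 and 3.74 CPM in M1 to 0.152 and 0.287 CPM in M3 (log2 difference -3.36 ± 0.74, adjusted p = 0.018). That call was lost on leaving out M1 replicate 2 or either M3 replicate. Of 14 complement genes, 1 was called higher and 2 lower (0 and 0 under the exchange). CD55, which protects cells from complement, rose from 50.3 and 26.2 CPM in M1 to 127 and 183 CPM in M3 (log2 difference 2.01 ± 0.31, adjusted p = 0.0047). CLU, encoding clusterin, fell from 24.7 and 19.3 CPM in M1 to 1.92 and 2.1 CPM in M3 (log2 difference -3.45 ± 0.28, adjusted p = 0.00055).

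Among developmental pathways, the calls included several ligands. In the TGF-beta and activin list, 1 of 18 genes was higher and 1 lower (0 and 0 under the exchange), and the first was INHBA, the subunit of activin A, which rose from 3.13 and 4.7 CPM in M1 to 41 and 49.3 CPM in M3 (log2 difference 3.53 ± 0.24, adjusted p = 0.00033). In the BMP list, 5 of 14 were higher and 1 lower (1 and 0 under the exchange). BMP5, described above as silent in M3, was not among these 14 genes, so the count of lower genes leaves it out. With BMP7 rose BMP4 (1.92 ± 0.46) and the antagonist NOG (1.68 ± 0.32). ID2, a direct target of BMP signalling, fell from 68.7 and 15.3 CPM in M1 to 7.72 and 5.95 CPM in M3 (log2 difference -2.62 ± 0.62, adjusted p = 0.025), from M1 libraries that lay far apart. In the WNT list of 23 genes, 4 were higher (WNT7A, WNT9A, WNT10B and SFRP1) and 3 lower (WNT4, WNT6 and WNT10A), against 0 and 1 under the exchange. WNT7A rose from 0.0967 and 0.451 CPM in M1 to 3.66 and 3.77 CPM in M3 (log2 difference 3.75 ± 0.64, adjusted p = 0.0068). WNT10A fell from 4.17 and 4.75 CPM in M1 to 0.707 and 0.54 CPM in M3 (log2 difference -2.84 ± 0.34, adjusted p = 0.0019). In the Notch list of 18 genes, NOTCH1 fell from 208 and 228 CPM in M1 to 88.6 and 116 CPM in M3 (log2 difference -1.09 ± 0.17, adjusted p = 0.0047). The ligand gene DLL3 rose by 1.53 ± 0.31. In the IGF list, 3 of 13 genes were higher and 1 lower (3 and 0 under the exchange). Of the docking proteins of the insulin and IGF receptors, IRS1 fell from 18.2 and 28.9 CPM in M1 to 2.49 and 7.5 CPM in M3 (log2 difference -2.24 ± 0.50, adjusted p = 0.02). IRS2 rose from 8.81 and 5.18 CPM in M1 to 31.8 and 42.4 CPM in M3 (log2 difference 2.41 ± 0.28, adjusted p = 0.0017). IGFBP2 rose from 5.68 and 13 CPM in M1 to 82.3 and 66.5 CPM in M3 (log2 difference 3.00 ± 0.39, adjusted p = 0.0027).

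**Figure D5:**
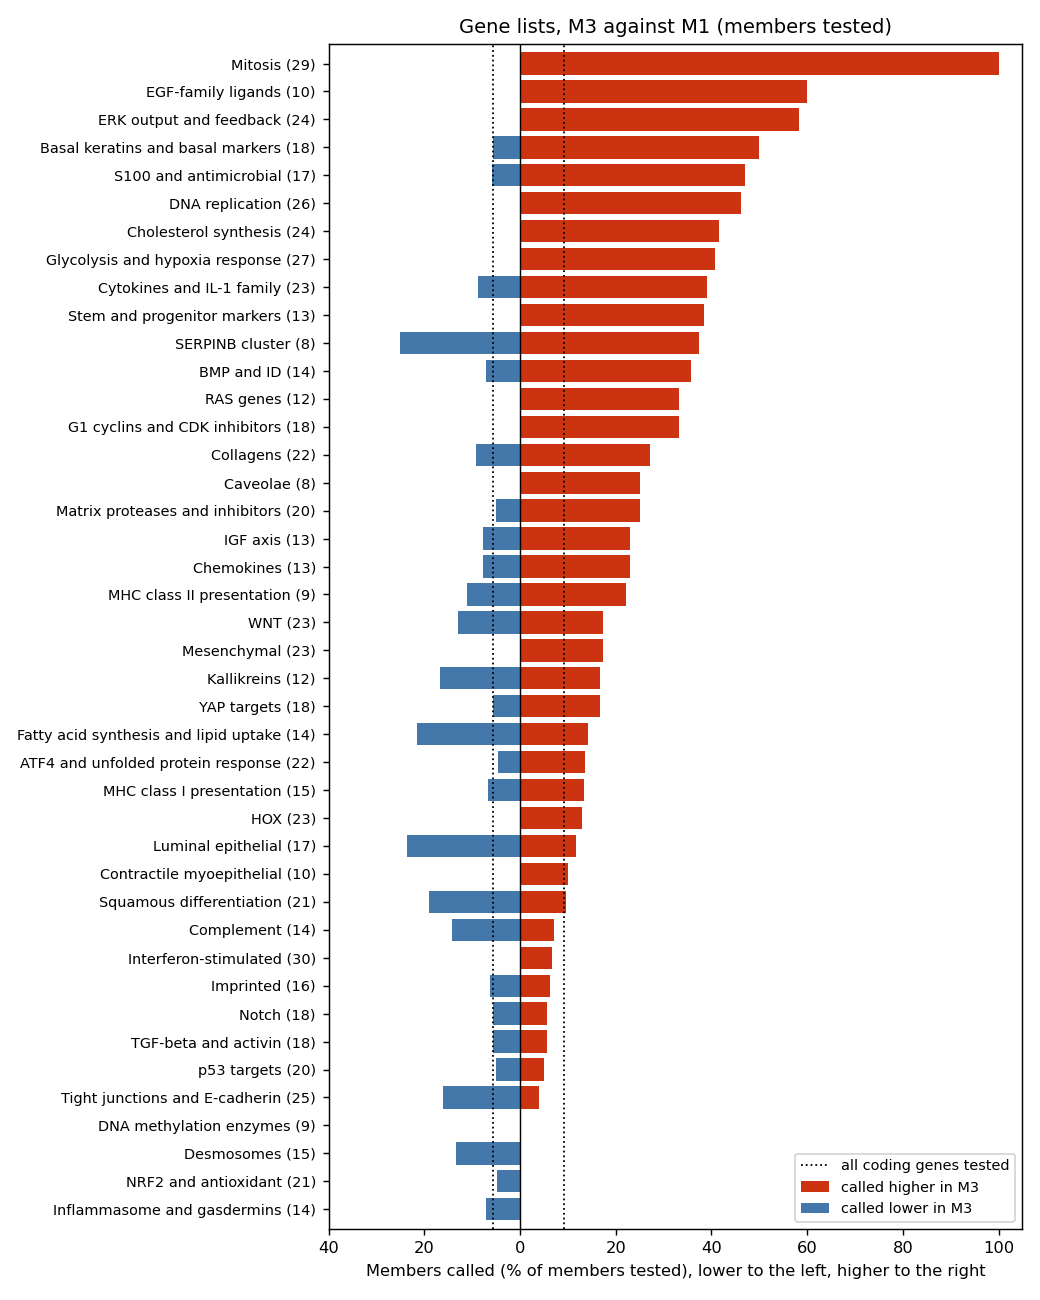
Share of the tested members of each gene list called higher in M3 (right, red) or lower (left, blue), in percent, for lists with at least 8 members tested, whose number is in brackets. Dotted lines mark the shares of all coding genes, 9.28% higher and 5.67% lower. Mitosis stands at 100% higher, followed by the EGF-family ligands and the ERK targets.

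The other lists had 4 calls or fewer each. Of 21 NRF2 and antioxidant genes, ALDH3A1 alone was called, lower, at 77.9 and 16.2 CPM in M1 and 0.682 and 5.99 CPM in M3 (log2 difference -3.81 ± 1.10, adjusted p = 0.047). It was not called on leaving out M1 replicate 1 or M3 replicate 1, and on leaving out M1 replicate 2 the list had 4 calls. Of 22 genes of the ATF4 and unfolded protein response, 3 were called higher and 1 lower (0 and 0 under the exchange), TRIB3 rising from 36.8 and 42.2 CPM in M1 to 147 and 187 CPM in M3 (log2 difference 2.08 ± 0.20, adjusted p = 0.00099) and SESN2 falling from 38.6 and 42.4 CPM in M1 to 16.2 and 16.8 CPM in M3 (log2 difference -1.30 ± 0.16, adjusted p = 0.002). MT2A, a metallothionein that binds zinc and copper, rose from 691 and 571 CPM in M1 to 3605 and 2378 CPM in M3 (log2 difference 2.25 ± 0.24, adjusted p = 0.0014), the only call among 4 metallothioneins tested. CAVIN3, a coat protein of caveolae, rose from 16.1 and 11.5 CPM in M1 to 85.8 and 78.8 CPM in M3 (log2 difference 2.58 ± 0.27, adjusted p = 0.0012) and CAV1 from 561 and 350.3 CPM in M1 to 1268 and 695 CPM in M3 (log2 difference 1.11 ± 0.31, adjusted p = 0.041), 2 of 8 in that list. Of 23 HOX genes tested, 3 were called higher, HOXB6, HOXB9 and HOXC10, each at under 4 CPM, and 0 were called higher without either M3 replicate, with 1 called lower without M3 replicate 1. Of 27 germline genes, 4 had enough counts to be tested, and PRSS21 was called higher and STAG3 lower (1 and 0 under the exchange). The call of STAG3 was also lost on leaving out any 1 library. Of 16 imprinted genes tested, SNRPN was called lower and PHLDA2 higher (1.17 ± 0.19). H19 read 10.3 and 7.32 CPM in M1 and 23 and 12.3 CPM in M3 without a call.

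Markers of other cell types were present at low or uneven levels. The 9 fibroblast genes summed to 62.2 and 12.2 CPM in M1 and 57.9 and 26.9 CPM in M3, and of 6 tested FAP and THY1 were called higher, FAP from 1.96 and 2.82 CPM in M1 to 41.7 and 9.06 CPM in M3 (log2 difference 3.41 ± 0.75, adjusted p = 0.02). Of the defining fibroblast markers, DCN had 2820 and 133 counts in the M1 libraries and 80 and 184 in those of M3, PDGFRA 9 and 60 counts in the M1 libraries and 5 and 26 in those of M3, PDGFRB 39 and 22 counts in the M1 libraries and 46 and 40 in those of M3 and LUM 0 and 2 counts in the M1 libraries and 3 and 2 in those of M3. The 6 endothelial genes matched summed to 2.68 and 3.24 CPM in M1 and 2.2 and 1.21 CPM in M3, with CDH5 at 6 and 1 counts in the M1 libraries and 0 and 0 in those of M3, and VWF was the 1 called of 3 tested, with 17 and 6 counts in the M1 libraries and 0 and 1 in those of M3, a call that was not made by DESeq2 or on leaving out any 1 library. The 9 leukocyte genes summed to 50.0 and 24.9 CPM in M1 and 42.5 and 13.4 CPM in M3. Their defining marker PTPRC had 0 and 3 counts in the M1 libraries and 0 and 0 in those of M3 and CD3E was at 0 in all 4 libraries, while CD14 fell from 24.6 and 14.3 CPM in M1 to 5.62 and 2.4 CPM in M3 (log2 difference -2.28 ± 0.49, adjusted p = 0.016). ITGAM fell from 4.22 and 4.84 CPM in M1 to 0.53 and 0.0344 CPM in M3 (log2 difference -4.01 ± 0.92, adjusted p = 0.021). CD68 read 9.55 and 4.03 CPM in M1 and 25.1 and 6.2 CPM in M3 without a call. The 7 adipocyte genes summed to 117 and 16.1 CPM in M1 and 9.4 and 11.8 CPM in M3, FABP4 making up most of the sum in M1 replicate 1, with ADIPOQ at 0 in all 4 libraries and PLIN1 at 75 and 45 counts in the M1 libraries and 23 and 20 in those of M3. The epithelial markers KRT5, at 8414 and 6203 CPM in M1 and 7056 and 5365 CPM in M3, and ITGB4 were expressed in every library. The part of these transcripts in the gene groups above was not tested.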

How the data were processed

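The authors deposited 1 table of RSEM expected counts per gene for the 8 poly A+ libraries, prepared with the TruSeq mRNA kit and sequenced in pairs. Per the labels, Trimmomatic, STAR, RSEM and Picard were used with hg19 (GRCh37). RSEM divides reads that match several genes by estimation, so 12.8% of values were not whole and near-identical genes can exchange reads. Expected counts were rounded to whole numbers here. Of 29502 genes with a count, 94.7% were matched to GENCODE release 44 on GRCh37, 16860 of them coding.

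Counts were filtered with filterByExpr by line, scaled by TMM and fitted with edgeR 4.0.16 (robust quasi-likelihood, R 4.3.3) over all 8 libraries, with 1 coefficient for each line and Benjamini-Hochberg adjustment over 18432 genes. A gene was called when the adjusted p of M3 minus M1 was below 0.05 and the log2 difference was past 1 in size. CPM are counts per 1000000 after TMM scaling. The SE is the absolute difference divided by the square root of F. DESeq2 1.42.0 was an alternative, as were other filters, limits and library sets. In simulated data for the same comparison over 18432 genes, 172 of 200 altered genes and 5 others were called. The simulation gave every gene in every line the same coefficient of variation, 0.283, and altered only genes that were not near the floor. In the data it was 0.377 in M1 and 0.307 in M3, so the simulated numbers do not measure the error rate of the calls reported here. Ratios with 1 to 6 counts in the lower line carry exact 95% intervals that cover counting error only, and genes at 0 a bound against 3 counts per library.

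The members and lists were chosen with earlier results of these data known. The named genes were HRAS, EGFR and PDCD4, the 15 coding genes with the largest fitted difference in each direction (called, groups apart, at least 100 counts in each library of the higher line), the silent genes, and in each list the called members with the largest difference or highest CPM, besides members that define it. For genes at 0 the ranking used the fitted value, which is not printed. A few list members are not reported here. Neighbours and the zinc finger cluster were chosen after the values were seen. Replicates are described by the study as biological and nothing ties them to separate derivations of a line, so p-values measure the spread between these libraries. That spread was estimated over all 4 lines, with a common coefficient of variation of 0.283. This is below the 0.377 of M1 and the 0.307 of M3, since the M2 libraries, at 0.0574, are part of the estimate. The p-values for M3 against M1 may therefore be too small.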

Additional observations from a re-analysis of the deposited data

Results flagged for a closer look

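Of the 193 named genes called in M3 against M1, 5 were called in the opposite direction in M4 against M1. They were picked for these opposite calls, so a difference between M4 and M3 was built into the choice. The adjusted p of M4 against M3, by edgeR's test, is therefore no separate support. Both M3 and M4 grew without added EGF. Comparisons of M3 and of M4 with M1 share the M1 libraries, so the values are given side by side. ACAT2, of the cholesterol pathway, was higher in M3 (1.64) and lower in M4 (-5.79), and M4 differed from M3 by -7.43 ± 0.38 (adjusted p = 0.00022), with 0.511 and 0.551 CPM in M4. KRT14, a basal keratin, was at 2.88 in M3 and -2.37 in M4, a difference of -5.24 ± 0.37 (adjusted p = 0.00095), with 2.3 and 2.74 CPM in M4. NNMT, which methylates nicotinamide, was at 1.08 and -2.45, a difference of -3.52 ± 0.28 (adjusted p = 0.0012), with 28.6 and 21.4 CPM in M4. CDKN2C was at 1.01 and -1.18, a difference of -2.19 ± 0.26 (adjusted p = 0.0034). HLA-DPB1, a class II chain, had 2 and 18 counts in the M1 libraries and 95 and 115 in those of M3 and 0 and 0 in M4, and since it was at 0 in M4 its fitted difference of -9.78 ± 1.51 (adjusted p = 0.0097) depends on the prior count and is no measure of size.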

How the results depend on the processing

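The count of genes called (2494, 1478 higher and 1016 lower, 2106 coding) was most affected by the exchange of M1 replicate 2 and M2 replicate 1, after which 219 were called, 146 higher and 73 lower, 204 of them coding. With only the M1 and M3 libraries fitted, 1659 were called, 604 of them lower. Without a filter on low counts, 1561 were lower. With no minimum fold, 3919 passed (2384 higher, 1535 lower, 3490 coding), and at an adjusted p under 0.01, 1192 (842 higher, 350 lower, 1105 coding). Leaving out 1 library gave 1751 to 2297 calls, 1200 to 1410 higher, 551 to 887 lower, and 1557 to 2032 coding, the lowest without M3 replicate 2. Replicate numbers did not pair M1 with M3 (r = 0.003 between the deviations of their replicates). Over the pairs of lines r ran from -0.080 to 0.29, the highest between M3 and M4. Whether the replicates of M3 and M4 share a source of variation was not tested. With the replicate block 2338 genes were called, 1425 higher and 913 lower, 2022 coding. Of 193 named genes called, 193 were called with other size factors, 192 by DESeq2, 148 with M1 and M3 alone, 156 to 166 without 1 library and 48 under the exchange. The silent counts depend on the limits by construction. Genes silent in M3 numbered 7 at 0 counts, 20 at up to 10, and 32 and 4 with at least 30 or 300 counts in M1, and 16 to 38 without 1 library. Those silent in M1 numbered 7, 29, 39 and 6, and 20 to 27 without 1 library. The 2-fold rule gave 2796 genes with 0.001 CPM added, 1933 with 0.1 CPM, 679 under the exchange and 2315 to 2409 from 1 replicate. Among named genes that were not called, leaving out 1 library moved the log2 difference across 0, with the range over the libraries left out, for CD68 (-0.12 to 1.95), CDH2 (-0.0069 to 0.90), CDKN1C (-5.08 to 2.71), KRT5 (-0.44 to 0.0034), PDGFRA (-2.70 to 0.74), S100A8 (-0.46 to 0.98), UBE3A (-0.012 to 0.65), ZNF564 (-0.49 to 0.16) and ZNF700 (-0.014 to 0.058). Under the exchange, S100A8 (-0.94) and ZNF700 (-0.29) changed sign, as did ZNF700 (-0.011) with at least 1 CPM required. Settings that leave out a library were chosen after seeing the data for the silent counts and the 2-fold rule. A lone library was then assumed to vary like the other lines. The causes of these shifts were not tested.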

Other observations

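By chromosome, the median log2 difference of the coding genes tested was 0.35 on chromosome 15, where SNRPN lies, and 0.30 on chromosome 3. It was -0.24 on chromosome 19, which holds the zinc finger cluster, and -0.21 on chromosome 20. With M1 replicate 2 and M2 replicate 1 exchanged, these medians were 0.32, 0.28, -0.19 and -0.19. On chromosome 15, 71 of 466 coding genes were called higher and 17 lower, against 48 higher and 77 lower of 999 on chromosome 19. Copy number was not measured in these libraries.

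Of 4343 non-coding genes tested, 171 were called higher in M3 and 217 lower, whereas coding genes had more calls higher than lower.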
